A study of Mus musculus with 16 samples.

Results

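Kinesins are motor proteins that use ATP to move along microtubules or to take their ends apart. The members described here are the 41 gene symbols of the deposited count matrix, out of 34573, that begin with Kif or Kifc and a number, after 3 pseudogene symbols were dropped. They were divided by function into 14 mitotic kinesins, 15 transport kinesins and 12 others with roles in cilia, signalling or microtubule dynamics. The lists were set with earlier results of these data known. Kif2a, a relative of Kif2b and Kif2c of the mitotic list, was placed among the others. A filter on low counts kept 31 of the 41 members for testing (13 mitotic, 13 transport and 5 others), among 14332 genes tested. Kif2b, Kif6 and Kif12 had 0 counts in every library, and 7 more members had counts too low to test.

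The study profiled CD8+ T cells of C57BL/6 mice by bulk RNA-seq while they were activated in culture, with 3 libraries of 0.2 M cells each in 4 states. Naive cells from spleens were stimulated with antibodies to CD3e and CD28, each at 10 µg/ml, and IL-2 at 300 U/ml was added after a night. Tn cells, of day 0, are labelled as CD8+ cells lacking CD44 and carrying CD62L, with no stimulation named. Teff1 (day 2) and Teff2 (day 5) were PD-1+ TIM-3- cells, while Tex (day 5) were PD-1+ TIM-3+ cells, and all 3 activated states received the same antibodies and IL-2. PD-1 and TIM-3 are inhibitory receptors; cells labelled by both after 5 days in a dish model exhaustion only as far as these surface proteins go. Whether the replicates of a state were separate mice or cultures is not in the labels, so the p-values below describe the spread between libraries, which may be technical.

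Mitotic kinesins build the spindle, position chromosomes and complete cytokinesis, and their genes are transcribed mainly in cells passing through G2 and mitosis. Their promoters are classic targets of the DREAM and MuvB complexes, which bind a short element called the CHR, and of the NF-Y factor, which binds CCAAT boxes. Transport kinesins carry vesicles, mitochondria and endosomes along microtubules in dividing and resting cells alike, with heavy chains of the Kif5, Kif3, Kif1, Kif13 and Kif16 families and light chains or adaptors that hold the cargo. T cells leave a quiescent state and divide rapidly after stimulation, and they also turn their microtubule network towards the cell they touch.

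Libraries held 14.7 to 21.2 M counts. Levels are given as CPM, counts per M counts of the library, on library sizes scaled by the TMM method, where 3 counts correspond to 0.143 to 0.204 CPM, the level that a count of 0 allows in 1 library. The 5 CD8 T cell markers were present in every library, with sums of 1804 to 3981 CPM. In Tn all 5 B cell markers were detected, with sums of 460, 36.7 and 963 CPM in replicates 1, 2 and 3, and all 4 MHC class II genes, with 1340, 112 and 2025 CPM. In the activated libraries the B cell sums were 5.35 to 9.03 CPM and the class II sums 29.1 to 121 CPM. NK cell (4 genes) and macrophage (7 genes) markers were likewise lowest in Tn replicate 2, at 2.45 and 62.9 CPM, against up to 99.1 and 260.0 CPM in the other Tn libraries. In the activated libraries the NK sums were 0.570 to 9.17 CPM and the macrophage sums 0.110 to 1.45 CPM. Of the NK genes, Ncr1 was at 0 in Teff2 and Klra8 at 0 in Teff1 and Teff2. Klre1, with 2.86, 3.93 and 6.07 CPM, made up most of the Teff2 sums. Havcr2, which encodes TIM-3, had 10.8 to 38.4 CPM in Tex and 0.258 to 0.612 CPM in Teff2. Replicate 1 of Teff2 and replicate 1 of Tex stood apart from the other libraries of their states in the mitotic kinesins, so results for these states are given with and without the activated libraries numbered 1. The 2 CD4 T cell markers were also highest there. Their sums in replicates 1, 2 and 3 were 5.05, 0.709 and 1.34 CPM in Teff2 and 6.92, 0.648 and 1.51 in Tex. In Teff1 they were 9.89, 2.42 and 3.03 CPM. Class II sums were 121, 50.9 and 39.4 CPM in Teff2 and 82.8, 64.8 and 36.4 in Tex, but their genes differed. Cd74 was highest in replicate 1, with 100.2, 17.0 and 23.3 CPM in Teff2 and 73.8, 15.7 and 19.9 in Tex. H2-Ab1 was highest in replicate 2, with 11.3, 33.1 and 11.9 CPM in Teff2 and 6.59, 48.4 and 14.0 in Tex. H2-Aa and H2-Eb1 had at most 6.02 CPM in these libraries. NK sums were lowest in replicate 1 of Teff2 and highest in replicate 1 of Tex. The part of these cells was not tested.

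The first comparison asked what changed between naive cells and cells activated for 2 days. All 13 mitotic kinesins tested rose in Teff1 against Tn, with a median log2 fold change of 4.15 and a range of 1.57 (Kif23) to 5.41 (Kif11). The median over all genes tested was -0.06. Among those genes 24.5% were called higher and 24.5% lower, at an adjusted p under 0.05 in the edgeR quasi-likelihood F test, adjusted by Benjamini and Hochberg over all 14332. The lowest Teff1 library lay above the highest Tn library for each of the 13, as it did for 29.6% of all genes, and 31.8% had it below. In these bulk libraries more cells of a kind and more RNA per cell cannot be told apart.

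Kif11, which slides spindle microtubules apart to keep the spindle bipolar (chromosome 19, 37376382 to 37421863 of GRCm38.p6), had 9.19, 4.15 and 9.76 CPM in Tn, 405, 293 and 287 in Teff1, 68.1, 347 and 344 in Teff2 and 94.5, 289.6 and 326 in Tex. Its log2 fold change in Teff1 was 5.41 (SE 0.68, adjusted p = 1.04e-04). All 9 activated libraries lay above all 3 Tn libraries, and the replicate 1 libraries of Teff2 and Tex were the lowest of the 9. Kif15, which backs up Kif11 in holding the spindle poles apart, had 4.43, 3.13 and 5.79 CPM in Tn, 161, 152 and 145 in Teff1, 42.6, 175 and 171 in Teff2 and 54.02, 132 and 140.2 in Tex. Its fold change was 5.09 (SE 0.56, adjusted p = 4.20e-05), with the same separation and the same low pair. Kifc1, a motor that walks towards microtubule minus ends and gathers them into spindle poles, had 9.79, 8.44 and 10.8 CPM in Tn, 109.6, 112 and 106 in Teff1, 43.6, 133 and 113 in Teff2 and 54.5, 152 and 125 in Tex. Kifc5b is a close copy of Kifc1 and had 9.72, 7.08 and 9.98 CPM in Tn, 40.2, 41.9 and 35.6 in Teff1, 13.3, 42.3 and 43.8 in Teff2 and 20.4, 45.7 and 44.4 in Tex. How reads shared by such copies were counted is not given, so the values of both are uncertain; their log2 fold changes were 3.49 and 2.13.

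Motors that act on chromosomes and kinetochores moved the same way. Kif2c, which takes microtubule ends apart to correct faulty kinetochore attachments, had 1.92, 0.680 and 2.41 CPM in Tn, 54.3, 71.6 and 78.5 in Teff1, 12.4, 92.4 and 75.9 in Teff2 and 20.2, 97.3 and 79.6 in Tex, a log2 fold change of 5.32 (SE 0.82, adjusted p = 3.37e-04) in Teff1. Kif22, a chromokinesin that pushes chromosome arms outward, had 9.59, 8.10 and 11.6 CPM in Tn, 92.8, 93.3 and 112 in Teff1, 28.7, 120.4 and 98.8 in Teff2 and 35.02, 137 and 94.9 in Tex. Kif4, a chromokinesin that also works in the central spindle, had 3.11, 0.476 and 3.33 CPM in Tn, 87.1, 66.9 and 70.1 in Teff1, 17.8, 86.5 and 72.6 in Teff2 and 26.8, 77.5 and 73.7 in Tex. For Kif2c, Kif22 and Kif4 each activated library was above each Tn library. Kif18b, which limits the length of astral microtubules, had 3.37, 0.476 and 3.22 CPM in Tn, 72.8, 54.4 and 61.4 in Teff1, 16.5, 76.3 and 64.9 in Teff2 and 25.5, 79.2 and 68.01 in Tex. Kif18a, its relative at kinetochores and outside the 12 mitotic members chosen for full values, had means of 3.79 ± 0.929 CPM in Tn and 27.2 ± 1.23 in Teff1 (SD, n = 3 each).

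Cytokinesis motors rose as well. Kif14, which works with citron kinase in the last step of division, had 2.91, 0.612 and 1.99 CPM in Tn, 56.2, 59.95 and 59.8 in Teff1, 13.6, 74.01 and 60.2 in Teff2 and 16.4, 61.4 and 61.6 in Tex. Kif20a, which carries Aurora B to the spindle midzone, had 5.56, 4.01 and 3.65 CPM in Tn, 58.6, 76.7 and 99.6 in Teff1, 16.6, 96.5 and 71.2 in Teff2 and 26.02, 89.5 and 68.4 in Tex. Kif20b, another motor of the midzone, had 22.95, 20.3 and 20.6 CPM in Tn, 87.2, 99.9 and 108 in Teff1, 29.6, 106 and 103 in Teff2 and 36.7, 87.7 and 93.8 in Tex. For each of these 3 genes no activated library overlapped a Tn library. Kif23, the motor subunit of the centralspindlin complex, had 25.2, 31.7 and 27.5 CPM in Tn, 78.9, 81.8 and 90.4 in Teff1, 17.5, 103 and 95.8 in Teff2 and 23.6, 93.6 and 89.9 in Tex. Its Teff1 libraries were all above Tn, while Teff2 replicate 1 and Tex replicate 1 fell below every Tn library. The rise of Kif23 in Teff1 was 1.57 (SE 0.57, adjusted p = 0.0394), and leaving out any 1 of the 6 libraries gave adjusted p-values of 0.0583 to 0.107. It also missed the threshold with upper-quartile factors (adjusted p = 0.0505) and with limma on the authors' normalized log2 values (adjusted p = 0.0640). The main fit takes its spread from all 12 libraries. An edgeR fit on the 6 libraries compared, with replicate number as a further term, gave 1.62 (SE 0.17, adjusted p = 3.55e-04). That fit differs from the main one in both the libraries and the replicate term. The labels name no pairing of Tn with Teff1 libraries. Deviations from the group means of equally numbered ones correlated at r = 0.15, 0.17 and 0.002.

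**Figure D1:**
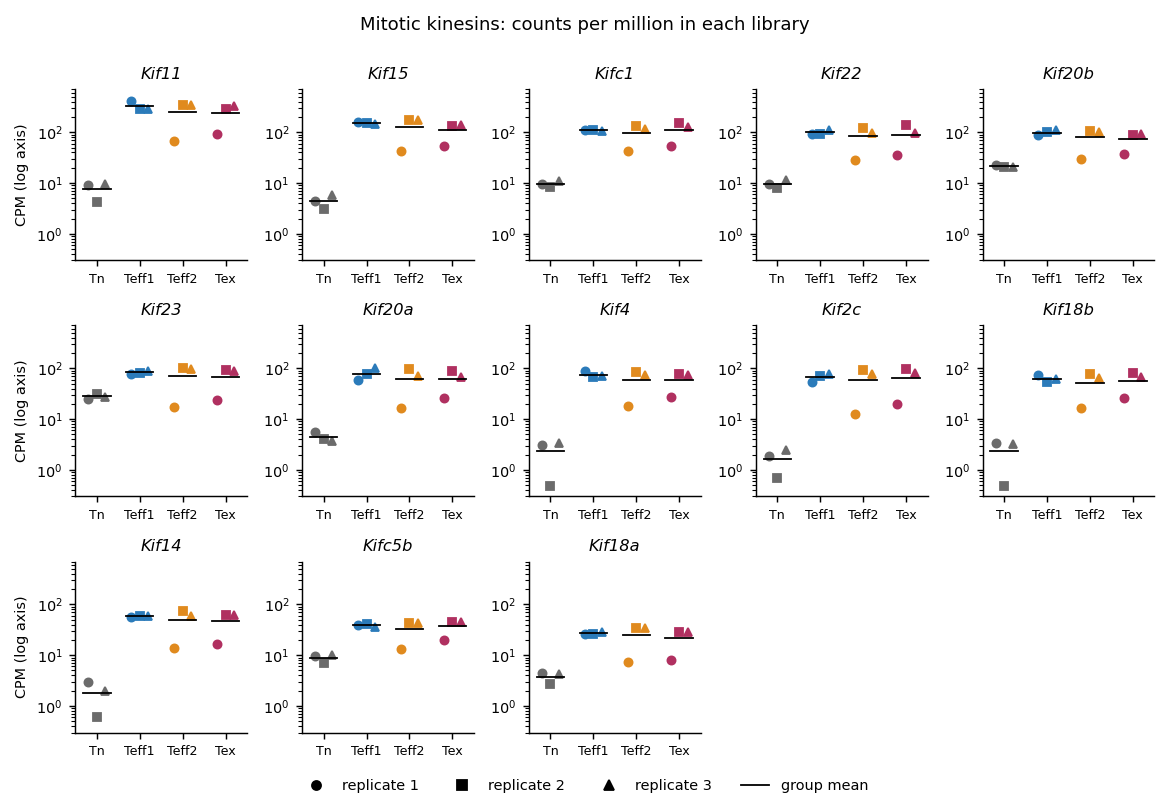
CPM of the 13 mitotic kinesins tested in each of the 12 libraries, on a log axis, with 1 panel per gene, symbols for replicates and black lines for group means. The 3 Teff1 libraries sit above the 3 Tn libraries in every panel, and replicate 1 (circles) is the lowest library of Teff2 and of Tex.

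Because these genes moved together, the sequences before their start sites were read from RefSeq promoters of GRCm38.p6. Entries matched 33 of the 41 members (13 mitotic, 10 transport and 10 others), leaving out Kif5a, Kif5b, Kif13b, Kif19a, Kif20a, Kif21b, Kifc2 and Kifc3. The 13 mitotic entries include Kif2b, which had no counts. Motifs were searched on both strands. The CHR was taken as TTTGAA or as the form TTCGAA, and the CCAAT box as CCAAT. An E2F-type site was taken as any of 4 forms, namely TTCCCGC, then the form TTGGCGC, then the form TTCGCGC and then the form TTGCCGC. The reversed CCAAT box, ATTGG, shares letters with the form TTGGCGC where an A precedes it. In the 250 bases before the start, a CHR was in 5 of 13 mitotic promoters, against 19.6% of all 27025 genes with a promoter in the table, and a CCAAT box in 9 of 13, against 37.5%. E2F-type sites were in 2 of 13, against 9.01%, and in 1 of 10 transport promoters. In a window nearer the start, from 100 bases before it to 50 after, 9 of the 13 mitotic promoters held a CHR, against 9.87% of all genes, 1 of 10 transport and 3 of 10 other members. In that window 7 of the 13 held both a CHR and a CCAAT box, against 2.83% of all genes, 0 of the 10 transport members and 2 of the 10 others. Kifc1 and its close copy Kifc5b are both in the 9 and in the 7. Their bases around the CHR are nearly the same, so they are not separate cases. In the 250 bases before the start 3 of 13 mitotic, 0 of 10 transport and 3 of 10 other promoters held both, against 7.93% of all genes.

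The 9 mitotic promoters with a CHR near the start are shown as 30 bases around it, 5′ to 3′ on the strand of the gene, with the letters of 1 CHR in capitals, because it is a feature that most of these promoters share.
Kif11 (chr19:37376351-37376380, plus strand): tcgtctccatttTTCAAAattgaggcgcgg
Kif15 (chr9:122951050-122951079, plus strand): tggggcgccaaaTTCAAAtctgcggccatc
Kif4 (chrX:100626072-100626101, plus strand): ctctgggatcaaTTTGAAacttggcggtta
Kif18b (chr11:102925104-102925133, minus strand): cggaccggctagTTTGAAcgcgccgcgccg
Kif20b (chr19:34922353-34922382, plus strand): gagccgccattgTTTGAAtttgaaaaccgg
Kif22 (chr7:127042420-127042449, minus strand): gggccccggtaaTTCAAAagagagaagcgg
Kif23 (chr9:61946780-61946809, minus strand): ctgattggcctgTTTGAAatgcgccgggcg
Kifc1 (chr17:33890615-33890644, minus strand): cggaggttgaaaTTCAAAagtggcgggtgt
Kifc5b (chr17:26917108-26917137, plus strand): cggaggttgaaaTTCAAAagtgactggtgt
The CHR of Kif11 and that of Kif15 both began 19 bases before the start, and that of Kif22 began 17 before it, while the other 6 began 2 to 30 bases after the start, where the first transcribed base is 1. Kif20b held a second CHR, which follows directly on the capitals and begins 14 bases after the start. Kif14, Kif2c, Kif18a and Kif2b held none in this window. The table's start lies 1547 bases inside the gene record for Kif14 and 3852 for Kif2c, and at the first base of the record for Kif18a and Kif2b. A letter match is a description of the sequence and no measure of binding.

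A longer stretch shows the spacing of the motifs in Kif11 and Kif15, the 2 largest fold changes among mitotic members whose entry begins at the start of the gene record, beside 2 transport kinesins with the same kind of entry. Each is the 120 bases before the start, with CHR, CCAAT and E2F-type letters in capitals.
Kif11 (chr19:37376262-37376381, plus strand): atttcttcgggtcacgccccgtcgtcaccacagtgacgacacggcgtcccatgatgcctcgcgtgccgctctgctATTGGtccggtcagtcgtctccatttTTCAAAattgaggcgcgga
Kif15 (chr9:122950961-122951080, plus strand): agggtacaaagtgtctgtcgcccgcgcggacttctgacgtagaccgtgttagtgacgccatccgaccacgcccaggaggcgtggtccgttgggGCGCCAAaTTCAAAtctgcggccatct
Kif5c (chr2:49619166-49619285, plus strand): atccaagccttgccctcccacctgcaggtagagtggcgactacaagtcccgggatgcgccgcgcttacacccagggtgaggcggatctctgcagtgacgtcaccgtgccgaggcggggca
Kif3c (chr12:3365012-3365131, plus strand): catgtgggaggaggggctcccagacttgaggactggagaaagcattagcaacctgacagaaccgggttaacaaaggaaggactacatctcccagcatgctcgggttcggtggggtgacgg
Kif11 had a reversed CCAAT box beginning 45 bases before the start and upstream of its CHR, and Kif15 had an E2F-type site beginning 27 bases before the start. Kif5c and Kif3c, whose log2 fold changes in Teff1 were -1.51 and -0.49, held none of the 3 motifs in these bases. In the 250 bases before the start a CCAAT box was in 3 of 10 transport promoters. They were those of Kif1b, which fell in Teff1 (-1.42), Kif3a, which was not called (0.29), and Kif3b, which rose (0.63).

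Transport kinesins did not move as one group in Teff1. Of the 13 tested, 2 rose (Kif3b and Kif5a), 4 fell (Kifc2, Kif5c, Kif1b and Kif3c) and 7 were not called, near the shares of 24.5% higher and 24.5% lower over all genes. The median log2 fold change was -0.03 against -0.06 over all genes. Kif5b, the conventional kinesin heavy chain found in most cells, had 193, 180.2 and 164 CPM in Tn, 230.5, 161 and 175 in Teff1, 183, 194 and 177 in Teff2 and 196, 154 and 189 in Tex. Its log2 fold change in Teff1 was 0.08, with a 95% interval of -0.28 to 0.43, and the libraries of all 4 states overlapped. Its relatives are best known from neurons, and both were named after their values were seen, as members outside the 10 transport kinesins with the highest group means. Kif5c fell from 4.51 ± 0.733 to 1.58 ± 0.283 CPM (SD, n = 3 each; log2 fold change -1.51, SE 0.42, adjusted p = 0.0111). Kif5a had 0.331, 0.340 and 0.697 CPM in Tn and 1.90, 2.23 and 1.45 in Teff1, a log2 fold change of 1.99 (SE 0.65, adjusted p = 0.0231). Among the fits with 1 library left out, the Kif5a call was lost without Tn replicate 1 (adjusted p = 0.0767), without Tn replicate 2 (0.0723) and without Teff1 replicate 2 (0.0601). Counts of transport calls under the other alternatives are given in the last section. Kif5a overlaps Dctn2, which had 80.6 ± 3.04 CPM in Tn and 93.3 ± 8.50 in Teff1. Without strand in the counting, which is not stated, reads of 2 overlapping genes cannot be told apart.

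The kinesin-2 motors form a complex of Kif3a with Kif3b or Kif3c and the adaptor Kifap3, and they carry cargo towards microtubule plus ends. Kif3b had 88.3, 81.5 and 75.4 CPM in Tn, 148, 123 and 109.6 in Teff1, 144, 99.5 and 123 in Teff2 and 134, 97.6 and 126 in Tex. It rose in Teff1 by 0.63 (SE 0.18, adjusted p = 0.0132) on the log2 scale, and every activated library was above every Tn library. Among the alternatives that removed the Kif3b call were upper-quartile factors (adjusted p = 0.0554) and the fit without Tn replicate 3 (adjusted p = 0.0514). Kif3a had 3.57, 3.67 and 4.35 CPM in Tn, 3.47, 3.66 and 7.09 in Teff1, 10.6, 10.8 and 11.98 in Teff2 and 13.8, 9.55 and 13.6 in Tex. Its Teff1 libraries overlapped Tn (log2 fold change 0.29, SE 0.30, adjusted p = 0.449), whereas all 6 day 5 libraries were above all Tn and Teff1 libraries. Kif3c had 16.3, 18.98 and 18.5 CPM in Tn, 11.9, 13.9 and 12.6 in Teff1, 19.9, 17.1 and 21.004 in Teff2 and 18.4, 17.1 and 21.8 in Tex. It fell in Teff1 (log2 fold change -0.49, SE 0.17, adjusted p = 0.0340), with no overlap with Tn, and its day 5 libraries overlapped Tn again. The Kif3c call was lost in 10 alternatives, with adjusted p-values of 0.0543 to 0.200. Kifap3, which is no kinesin itself, had 4.17, 4.01 and 4.88 CPM in Tn, 10.7, 9.98 and 8.42 in Teff1, 13.1, 14.8 and 18.9 in Teff2 and 16.6, 14.7 and 19.9 in Tex and rose in Teff1 by 1.15 (SE 0.22, adjusted p = 0.00141).

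Among the kinesin-3 motors of the transport list that were tested, Kif1b fell and the others were not called in Teff1. Kif1b, known for carrying mitochondria and synaptic vesicle precursors, had 201, 188 and 154 CPM in Tn, 95.3, 51.2 and 56.6 in Teff1, 92.3, 44.2 and 59.4 in Teff2 and 97.5, 42.4 and 61.1 in Tex. It fell in Teff1 by 1.42 (SE 0.35, adjusted p = 0.00550) on the log2 scale, and every activated library was below every Tn library. Kif1c, which moves vesicles and integrin-bearing endosomes, had 98.96, 87.9 and 80.9 CPM in Tn, 84.4, 88.1 and 82.8 in Teff1, 96.3, 77.1 and 71.7 in Teff2 and 118, 89.3 and 95.5 in Tex. The activated libraries of Kif1c overlapped Tn in each state, whereas its 3 Tex libraries were all above its 3 Teff1 libraries. Its log2 fold change in Teff1 was -0.07, with an interval of -0.41 to 0.28. Kif13b had 33.8, 29.1 and 30.04 CPM in Tn, 24.4, 15.5 and 17.2 in Teff1, 31.3, 14.3 and 19.9 in Teff2 and 28.1, 10.7 and 22.98 in Tex. All Teff1 libraries of Kif13b were below Tn, but its fold change did not pass the test (-0.70, SE 0.35, adjusted p = 0.116). It did pass with the activated replicate 1 libraries left out (log2 fold change -0.85, adjusted p = 0.0331). Kif16b, a motor of early endosomes, had 31.8, 34.5 and 27.3 CPM in Tn, 32.2, 51.9 and 44.9 in Teff1, 32.9, 29.7 and 32.9 in Teff2 and 35.2, 29.8 and 35.05 in Tex, and its log2 fold change of 0.46 in Teff1 had an adjusted p of 0.0576 with edgeR, 0.0478 with DESeq2 and 0.00942 without Teff1 replicate 1. Kif13a, another endosome motor, had group means of 6.87 to 9.02 CPM and was not called in any comparison.

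The largest fall among the transport kinesins tested was that of Kifc2, a motor of the C-terminal kinesin family. Kifc2 had 20.6, 22.7 and 21.4 CPM in Tn, 2.19, 2.52 and 1.88 in Teff1, 9.08, 1.03 and 3.81 in Teff2 and 6.53, 1.46 and 2.55 in Tex. It fell in Teff1 by 3.29 (SE 0.68, adjusted p = 0.00211), and every activated library was below every Tn library. In Teff2 and Tex the highest Kifc2 value was replicate 1. Kifc2 overlaps Cyhr1 and Foxh1, and Cyhr1 went from 103 ± 6.55 to 70.5 ± 8.04 CPM in Teff1; the part of shared reads was not tested. Kifc3 had 10.4, 6.94 and 8.37 CPM in Tn, 11.3, 8.88 and 7.94 in Teff1, 7.24, 5.35 and 1.67 in Teff2 and 7.14, 6.05 and 2.18 in Tex and was not called in any comparison. Kif1a and Kif17, best known from neurons and cilia, had at most 0.331 and 0.878 CPM in any library and were not tested.

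**Figure D2:**
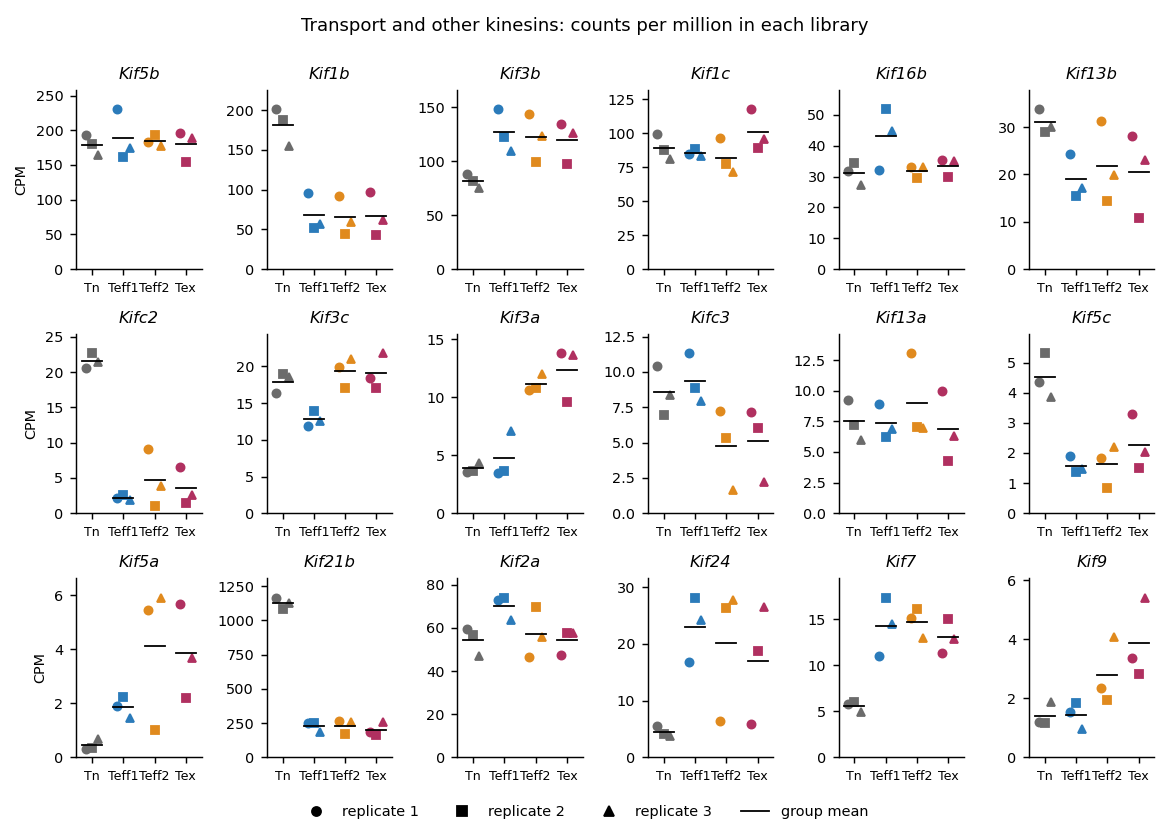
CPM of the 13 transport kinesins tested (Kif5b to Kif5a) and the 5 other kinesins tested (Kif21b to Kif9) in each library, on linear axes from 0, with symbols for replicates and black lines for group means. Kif1b, Kifc2 and Kif21b have all activated libraries below Tn, Kif3b has all of them above Tn, and Kif5b shows no separation.

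Kif21b fell on activation. It encodes a processive motor that slows microtubule growth and is known to shape the microtubule network of T cells when they meet a target. Kif21b (chromosome 1, 136131390 to 136178001) had 1167, 1083 and 1129.8 CPM in Tn, 251, 252 and 187 in Teff1, 264, 171 and 259 in Teff2 and 185, 162 and 255 in Tex. It fell in Teff1 by 2.29 (SE 0.23, adjusted p = 2.15e-05) on the log2 scale, a 4.90-fold lower level, and in Teff2 and Tex by 2.29 and 2.49. All 9 activated libraries lay far below all 3 Tn libraries, and the spread within each state was small beside that gap. Tn replicate 2, with the lowest sums of B cell, class II, NK and macrophage markers, had the lowest Kif21b value of the 3 Tn libraries, and the part of those cells in the Kif21b values was not tested.

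Of the other members outside the mitotic and transport lists, 2 rose in Teff1. Kif24, a centriole protein that takes microtubules apart and holds back cilia, had 5.56, 4.15 and 3.81 CPM in Tn, 16.7, 28.2 and 24.2 in Teff1, 6.37, 26.4 and 27.8 in Teff2 and 5.87, 18.7 and 26.5 in Tex, with a log2 fold change of 2.35 (SE 0.58, adjusted p = 0.00589). All activated libraries of Kif24 were above Tn, those of Teff2 and Tex replicate 1 only just. Kif7, which regulates Hedgehog signalling at the cilium tip, had 5.82, 5.99 and 4.94 CPM in Tn, 11.1, 17.4 and 14.5 in Teff1, 15.2, 16.1 and 12.9 in Teff2 and 11.3, 15.1 and 12.8 in Tex and a fold change of 1.36 (SE 0.23, adjusted p = 5.60e-04). Every activated library of Kif7 was above Tn, and the 3 activated states overlapped. Kif7 overlaps Ticrr, a replication gene that went from 2.95 ± 0.724 to 94.4 ± 20.1 CPM (SD, n = 3 each), and the part of its reads in the Kif7 count was not tested. Kif2a, a relative of Kif2c that also acts in interphase cells, had 59.7, 56.7 and 46.9 CPM in Tn, 73.03, 74.1 and 63.5 in Teff1, 46.4, 69.6 and 55.6 in Teff2 and 47.3, 57.8 and 57.8 in Tex. Its Teff1 libraries were all above Tn, but the log2 fold change of 0.37 had an adjusted p of 0.103. With Kif2a in the mitotic list, not every mitotic member tested would have been called in Teff1.

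Kif9, a motor of motile cilia, had 1.19, 1.16 and 1.88 CPM in Tn, 1.52, 1.85 and 0.970 in Teff1, 2.35, 1.93 and 4.08 in Teff2 and 3.35, 2.81 and 5.41 in Tex. Its Teff1 libraries overlapped Tn, and all Tex libraries were above Tn. Kif19a, a motor that sets cilium length, was too low to test, with 1.59, 0.272 and 2.25 CPM in Tn and at most 0.102 CPM in any activated library. Tn replicate 2 was the lowest Tn library for Kif19a and also for the B cell, class II, NK and macrophage marker sums; their part in the Kif19a values was not tested. Kif21a had 0.268 to 0.544 CPM in Tn and 0 counts in all Teff1 and Tex libraries. Kif26a, Kif26b and Kif27 stayed at or below 0.331 CPM in every library.

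Read as 1 pool, kinesin counts of Tn and Teff1 were of similar size but divided differently among the roles. All members together summed to 2067, 1910 and 1901 CPM in Tn, against 2341, 2133 and 2099 CPM in Teff1. Mitotic kinesins made up 5.43% ± 0.62 of kinesin counts in Tn and 58.5% ± 2.28 in Teff1 (SD, n = 3 each). Transport kinesins made up 33.6% ± 1.92 and 26.0% ± 1.81. These are shares of counts, which depend on transcript length as well as on transcript number.

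**Figure D3:**
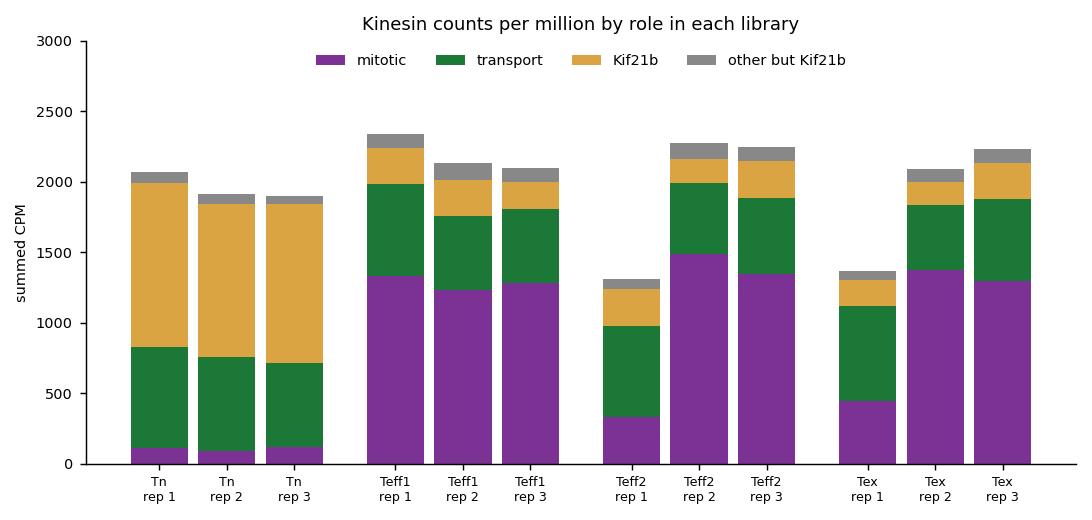
Summed CPM of kinesins in each library, stacked as mitotic, transport, Kif21b and the remaining other members. Kif21b fills most of each Tn bar and mitotic kinesins most of each Teff1 bar, and the day 5 replicate 1 bars are the shortest.

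The next comparisons asked whether day 5 effectors differed from day 2 effectors and whether TIM-3+ cells differed from TIM-3- cells at day 5. No kinesin was called in Teff2 against Teff1, where 0.670% of all genes were called. All 13 mitotic kinesins had a negative log2 fold change in that comparison (median -0.25, range -0.38 to -0.10), and none reached an unadjusted p under 0.05. With the replicate 1 libraries of the activated states left out, the median was 0.19 and none was called. Of the transport members 3 had an unadjusted p under 0.05. Kif3a had a log2 fold change of 1.24 (interval 0.58 to 1.89, adjusted p = 0.0921), and Kif3c had 0.60 (interval 0.22 to 0.97, adjusted p = 0.161). DESeq2 called both, with adjusted p-values of 0.00672 and 0.0294. Kif16b had -0.43 (adjusted p = 0.377) and was the one of the 3 that pointed down. Among the other members Kif9 had an unadjusted p under 0.05, with a log2 fold change of 0.94 (adjusted p = 0.415).

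The low replicate 1 libraries of day 5 were low in all mitotic members. On the log2 CPM scale, with 0.5 CPM added, all 13 were lower in replicate 1 than in the mean of the other 2 in Teff2 (median -2.12, range -2.71 to -1.49) and in Tex (median -1.57, range -2.10 to -1.13). In Teff1 6 were higher and 7 lower (median -0.05), and the median over all genes stood at 0.02 for Teff1, 0.01 for Teff2 and 0.00 for Tex. For each of the 13, the replicate 1 libraries of Teff2 and Tex were the 2 lowest of the 9 activated libraries. Transport members went the other way, with 11 of 13 higher in replicate 1 in Teff2 (median 0.37) and 12 of 13 in Tex (median 0.75). They were also more often higher in replicate 1 than lower in Teff1, in 9 of 13 (median 0.33), and in Tn, in 8 of 13 (median 0.16). Mki67, a general marker of dividing cells, had 239, 895 and 822 CPM in Teff2 and 304, 715 and 809 CPM in Tex, low in the same 2 libraries. Foxm1, a factor that drives genes of G2 and mitosis, had 32.5, 134 and 119 CPM in Teff2 and 42.98, 136 and 121 in Tex. The labels give no feature by which replicate 1 differs from the others.

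Both day 5 states were also compared with Tn, and these comparisons share the Tn libraries with that of Teff1. In Teff2 12 of 13 mitotic kinesins were higher (25.6% of all genes), with a median log2 fold change of 3.80, and in Tex 12 of 13 (27.3% of all genes), with a median of 3.80. Kif23 missed the threshold in both, at 1.35 (SE 0.57, adjusted p = 0.0683) and 1.29 (SE 0.57, adjusted p = 0.0745). With the activated replicate 1 libraries left out, all 13 were called in both states, with medians of 4.34 and 4.26. With only Tn replicate 2 kept as the naive state, 11 were called in Teff1, 11 in Teff2 and 10 in Tex. In 11 of the 13 mitotic members Tn replicate 2 was the lowest Tn library, as it was for the B cell and macrophage marker sums, and the part of those cells was not tested.

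Among transport members, Kif3a, Kif3b and Kif5a were higher in both day 5 states than in Tn. Kifc2 and Kif1b were lower in both, where 23.3% of all genes were lower in Teff2 and 25.6% in Tex. With the activated replicate 1 libraries left out, 3 transport members were higher and 4 lower in each of the 2 states. Of all 14798 genes tested in that setting, 4488 were higher and 4004 lower in Teff2, and 4756 and 4301 in Tex. The transport counts lie near these shares. Kif3a reached 11.1 ± 0.736 CPM in Teff2 and 12.3 ± 2.40 in Tex against 3.86 ± 0.420 in Tn (SD, n = 3 each), a log2 fold change of 1.52 (SE 0.30, adjusted p = 0.00166) and 1.67 (SE 0.30, adjusted p = 8.34e-04). Kifap3 rose by 1.84 and 1.97 on the same scale. Kif5a had 5.46, 1.03 and 5.91 CPM in Teff2 and 5.65, 2.21 and 3.69 in Tex, with log2 fold changes of 3.14 (SE 0.65, adjusted p = 0.00213) and 3.04 (SE 0.65, adjusted p = 0.00227). Every day 5 library of Kif5a was above every Tn library, and replicate 2 was the lowest in both states. Dctn2, which Kif5a overlaps, was also called higher in both, at 116 ± 14.3 CPM in Teff2 and 139 ± 7.95 in Tex against 80.6 ± 3.04 in Tn. The part of shared reads in the Kif5a values was not tested. Kif1b had -1.47 (SE 0.35, adjusted p = 0.00445) in Teff2 and -1.44 (SE 0.35, adjusted p = 0.00458) in Tex. Kifc2 had -2.21 (SE 0.65, adjusted p = 0.0142) in Teff2, a call lost without Teff2 replicate 3 (adjusted p = 0.0523), and -2.62 (SE 0.66, adjusted p = 0.00578) in Tex. Kif3b rose by 0.58 (adjusted p = 0.0204) and 0.54 (adjusted p = 0.0250), calls that upper-quartile factors removed (adjusted p = 0.0654 and 0.0861). Each of these was also lost without Tn replicate 2, without Tn replicate 3 and without replicate 1 of its own state, at adjusted p-values of 0.0565, 0.0730 and 0.0628 in Teff2 and 0.0675, 0.0835 and 0.0698 in Tex. The Tex call was lost without Tex replicate 3 too (0.0648). Kif5c was lower in Teff2 (-1.46, SE 0.42, adjusted p = 0.0130), a call lost without Teff2 replicate 2 (adjusted p = 0.0592). In Tex Kif5c had -0.98 (SE 0.41, adjusted p = 0.0625), and it was called with DESeq2 (adjusted p = 0.0341), with upper-quartile factors (0.0478) and without Tex replicate 1 (0.0287). Kif7 and Kif24 were higher and Kif21b lower in both states. Kif9 was higher in Tex (1.44, SE 0.43, adjusted p = 0.0145) and had 0.98 (SE 0.43, adjusted p = 0.0793) in Teff2, and the Tex call was lost without Tex replicate 3 (adjusted p = 0.0686), without Tn replicate 1 (0.0513) and without Tn replicate 2 (0.0514). The Kif24 call in Tex was lost without Tex replicate 3 (adjusted p = 0.0638) and without Tn replicate 3 (0.0525).

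**Figure D4:**
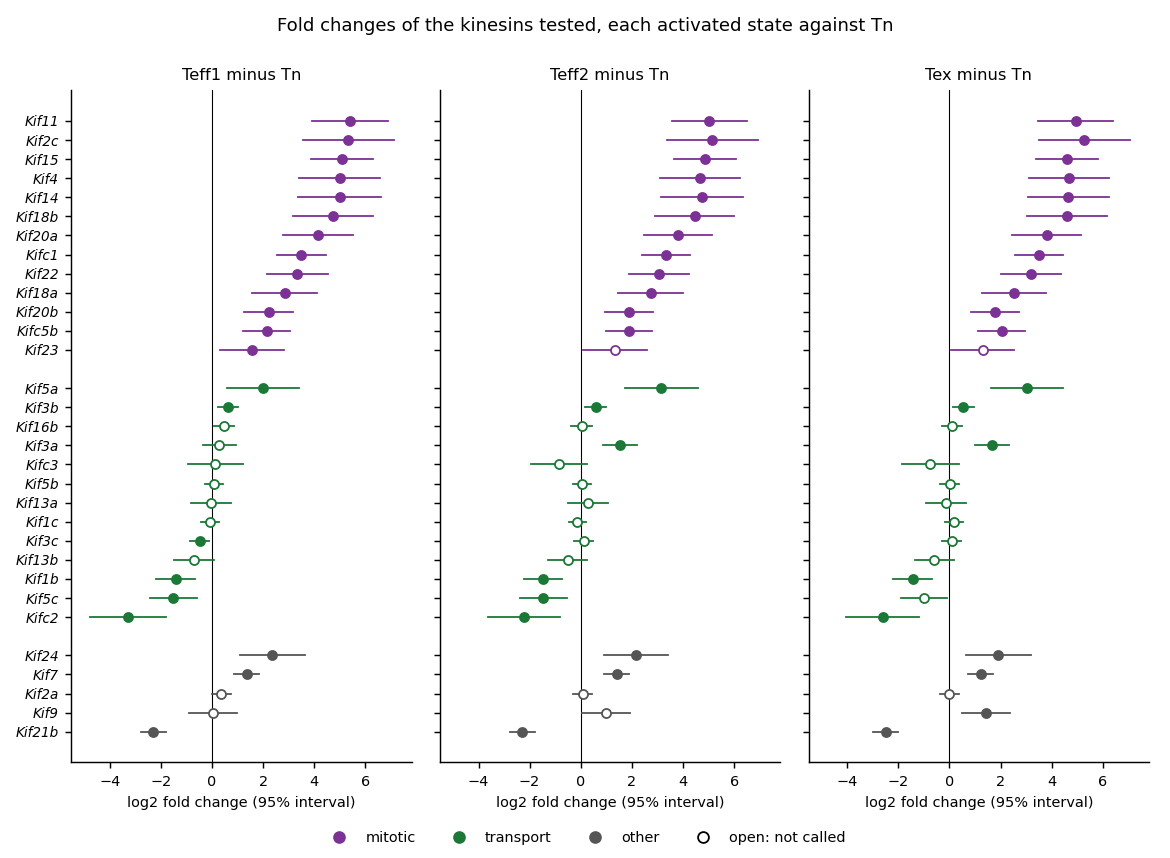
Log2 fold changes of the 31 kinesins tested in Teff1, Teff2 and Tex against Tn, by role; bars are 95% intervals and open points were not called. Mitotic members lie to the right of 0 in all 3 panels, with Kif23 open in Teff2 and Tex, while transport members spread to both sides of it.

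Between TIM-3+ and TIM-3- cells of day 5 no kinesin was called. In the edgeR fit over 12 libraries 0 members were called in Tex against Teff2, 0 had an unadjusted p under 0.05, and 0.00698% of all genes were called; DESeq2 also called 0 members. Equally numbered Tex and Teff2 libraries deviated together, so they were also compared within pairs, where 0.962% of all genes were higher and 0.725% lower. No kinesin was called there either, and the within-pair interval of every mitotic member lay between -0.44 (Kif15) and 0.51 (Kif2c) on the log2 scale. In pair 1 all 13 mitotic kinesins were higher in Tex (median 0.42), whereas in pairs 2 and 3 only 5 and 6 of them were (medians -0.13 and -0.06). Kif1c came nearest to the threshold, with within-pair differences of 0.29, 0.21 and 0.41 and an adjusted p of 0.103. Kif9 was higher in Tex in every pair by 0.44, 0.44 and 0.37, and its adjusted p was 0.289. In all, 7 of the 31 members were higher in Tex in every pair, the others being Kif2c, Kif18b, Kifc1, Kifc5b and Kif16b. Kif2c, for one, had differences of 0.68, 0.07 and 0.07 and Kifc1 of 0.32, 0.19 and 0.14. Lower in every pair were 4 members, Kif13a, Kif21b, Kif24 and Kif7, with differences for Kif13a of -0.37, -0.66 and -0.13. These members were named after their values were seen, and the within-pair adjusted p-values of the 9 besides Kif1c and Kif9 were 0.224 (Kifc1) to 0.776 (Kif16b). The share of all genes with 1 sign in every pair was not computed, so the 7 and the 4 cannot be set against it.

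With only pairs 2 and 3 kept, a choice made after the data were seen, 2 of 31 kinesins were called, 1 in each direction, beside 3.15% of all genes called higher and 2.12% lower. Kif15 was lower in Tex by -0.35 (SE 0.09, adjusted p = 0.0191) and Kif1c higher by 0.31 (SE 0.09, adjusted p = 0.0480). Kif15 had a difference of 0.34 in pair 1 and of -0.41 and -0.29 in pairs 2 and 3, so pair 1 pointed the other way.

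**Figure D5:**
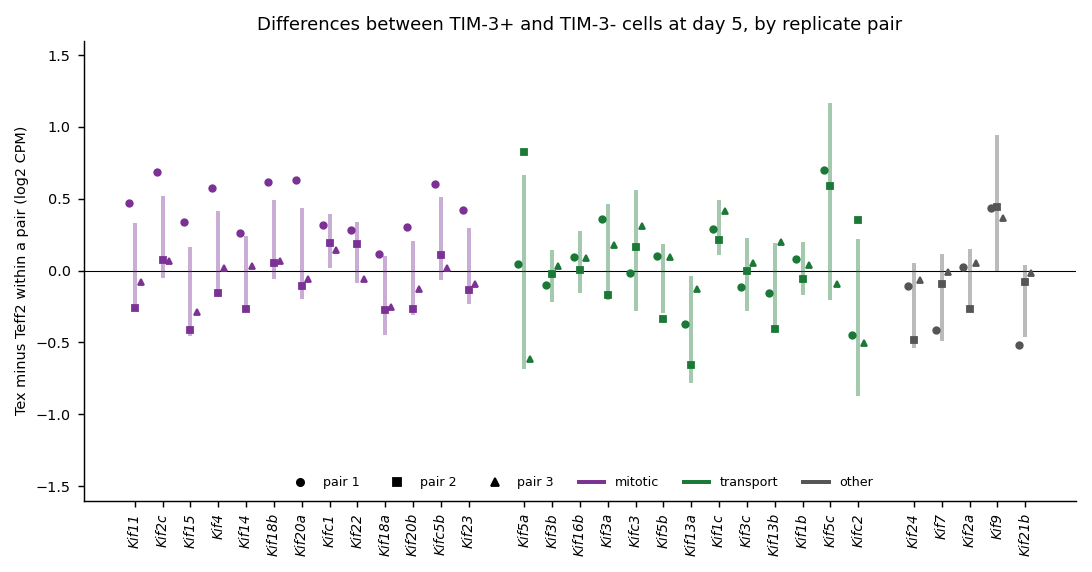
Tex minus Teff2 on the log2 CPM scale for the 31 kinesins tested, with 1 symbol per replicate pair and bars for the 95% interval of the fit within pairs. Pair 1 lies above 0 for all 13 mitotic members, while 7 of the 31 members lie above 0 and 4 below 0 in all 3 pairs. The matching share of all genes was not computed.

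Genes that work with kinesins were counted from lists by role. Of 21 mitotic partner genes all 21 rose in Teff1, with a median log2 fold change of 4.66, the largest being Aurkb (5.60), Ccnb1 (5.54) and Hmmr (5.35). Over all genes tested 24.5% were higher and the median was -0.06. In Teff2 and in Tex 20 of the 21 were higher than in Tn, beside 25.6% and 27.3% of all genes. The remaining gene, Racgap1, is the partner of Kif23 in centralspindlin and had log2 fold changes of 0.82 (SE 0.41, adjusted p = 0.113) and 0.91 (SE 0.41, adjusted p = 0.0777). Cenpe, a kinetochore kinesin whose symbol lies outside the rule, had 7.08, 3.27 and 7.14 CPM in Tn, 128, 152 and 141 in Teff1, 28.5, 170.1 and 186 in Teff2 and 41.3, 135 and 169 in Tex. Its rise of 4.58 (SE 0.71, adjusted p = 3.41e-04) in Teff1 passed the test, and it too was lowest in replicate 1 at day 5. Of 14 regulators of cell-cycle transcription 10 rose and 2 fell in Teff1, beside 24.5% higher and 24.5% lower over all genes. E2f8, Mybl2 and E2f7 rose by 4.58, 4.37 and 4.03, and Foxm1 by 3.78, whereas Rbl2, which keeps such genes off in resting cells, fell by 1.34.

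The transport partners moved in both directions, with 4 of 18 higher and 7 lower in Teff1 (median -0.49), beside 24.5% and 24.5% of all genes. Fyco1, which links late endosomes to kinesin, had a log2 fold change of -1.85, Klc4, a light chain, -1.64, and Mtap7, which recruits Kif5 to microtubules, -0.87. Of the other light chain genes Klc3 rose by 1.92, Klc1 had 0.41 (adjusted p = 0.0835) and Klc2 -0.43 (adjusted p = 0.263). At day 5 Klc1 was higher than in Tn, at 182 ± 36.5 CPM in Teff2 and 199 ± 41.5 in Tex against 91.2 ± 7.55 (SD, n = 3 each). Of 20 genes tested for dynein, the motor that walks the other way, 2 rose and 1 fell in Teff1, namely Dynll2 (1.68), Nde1 (0.83) and Dync1h1 (-0.90). Both counts lie below the shares of 24.5% higher and 24.5% lower over all genes. In Tex against Tn 9 of these 20 were higher and 1 lower, beside 27.3% and 25.6% of all genes.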

How the data were processed

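Bulk RNA-seq of 12 libraries, 3 in each of 4 states, was analysed, and 4 Hi-C samples of the series are not analysed here. The authors deposited raw counts per gene symbol, and the submitters' processing notes name mm10, BWA, Juicer, HISAT2, HTSeq and DESeq2 with no roles or versions. The authors also deposited a normalized log2 matrix, whose transformation is not given in the sources used here; it served only as an alternative. The strand setting of the counting is not given either.

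Library totals were 14.7 to 21.2 M counts. Genes passing edgeR's filterByExpr with a minimum count of 10 were fitted over all 12 libraries with group as the only term, using edgeR 4.0.16 (quasi-likelihood F test, TMM factors) in R 4.3.3, and p-values were adjusted by Benjamini and Hochberg over all 14332 genes. Genes with an adjusted p under 0.05 were called. The scripts were tested on simulated counts for Teff1 against Tn. Of 97 genes given a log2 fold change of 1 in either direction, 23.7% were called with the right sign. Of 102 genes given one of 2, 72.5% were, with 4 false calls among 14039 genes. A member not called may therefore still have changed. DESeq2 1.42.0 and limma 3.58.1 were used for alternatives; figures were drawn with matplotlib 3.10.9. Counting error only is covered by the floor of 3 counts.

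Deviations from the group means correlated between equally numbered Tex and Teff2 libraries (r = 0.81, 0.72 and 0.67), so these numbers were taken to pair them. The labels name no source of this pairing. The correlations were not all above 0.1 in the other comparisons.

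Full values were given for the 12 mitotic, 10 transport and 6 other members with the highest group mean, from a level of 1 CPM; members outside that choice were named after their values were seen. Members, lists and alternatives were chosen with earlier results of these data known.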

Additional observations from a re-analysis of the deposited data

How the results depend on the processing

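Over 31 tested members and 5 comparisons, 2209 fold changes under an alternative were on the same side of the threshold as reported, 28 passed it anew, 57 no longer passed it and 0 turned direction when called. Counts of called members moved by over 1.5 times in 39 cases and stayed within that in 405. In Teff1 against Tn, 1 transport kinesin was called higher with upper-quartile factors or with limma on the authors' log2 values, and 1 to 3 with a library left out (1 without Tn replicate 1, 2 or 3 or Teff1 replicate 2), in place of 2. The other members called lower, 1 as reported, were 3 in Teff1, 2 in Teff2 and 3 in Tex with no filter, 4, 3 and 4 with limma, 2 in each state without the activated libraries numbered 1, and 1 to 2 with a library left out; Kif19a, Kif21a and, with limma, Kif26a then had a test. With Tn replicates 1 and 3 left out, which leaves 1 naive library assumed to vary like the other groups, transport kinesins called in Teff1 fell to 0 higher and 1 lower, those lower in Teff2 to 1, and other members called higher to 1 in Teff1, 1 in Teff2 and 1 in Tex. Transport kinesins lower in Tex were 4 with limma and 4 without the activated libraries numbered 1, in place of 2. Other members higher in Tex were 1 to 3 with a library left out, with 1 without Tex replicate 3. In Teff2 against Teff1 DESeq2 called 2 transport kinesins higher, and over all genes 378 higher and 142 lower against 80 and 16 with edgeR. Mitotic counts with a library left out were 12 in Teff1 and 12 to 13 in Teff2 and in Tex. The median over all genes moved from -0.06 to -0.20 in Teff1 with upper-quartile factors, from 0.00 to -0.11 in Teff2 and from 0.00 to -0.12 in Tex. With the replicate block on the 6 libraries compared, mitotic kinesins called higher than in Tn were 13 in Teff1, 12 in Teff2 and 12 in Tex, and transport kinesins 2 higher and 4 lower, 3 and 3, and 3 and 2. In Teff1 the block called Kif13b lower (adjusted p = 0.0216) and lost Kif3c (adjusted p = 0.115). With the block, 0 kinesins were called in Tex against Teff2 or Teff2 against Teff1. With the block on pairs 2 and 3 only, an alternative chosen after seeing the data, 1 mitotic kinesin was lower and 1 transport kinesin higher in Tex. A scale of counts per kilobase of exon could not be run, since the files give no exon lengths. Beyond the factors and libraries named, the cause of these moves was not tested.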
